A study of Mus musculus with 30 samples.

Results

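PolyA RNA of mouse embryonic stem (ES) cells without Tdg was set against that of ES cells with floxed Tdg alleles, gene by gene and by functional group. The comparison takes in 4 of the 30 libraries of the series, 2 labelled Tdg -/- and 2 labelled Tdg fl/fl. Both genotypes carry the strain label C57BL/6-ICR, and the number of clones or passages behind them, the way the floxed alleles were deleted and the culture of the cells used for RNA are not given in the sources used here. For each genotype there is 1 deposited expression value per gene, in FPKM (fragments scaled to the length of the transcript and the size of the library), drawn from both libraries of that genotype. Of 20286 gene symbols, the 12053 with at least 1 FPKM in either genotype were measured. The change of a gene is given as log2 of the ratio of (FPKM + 1) in Tdg -/- over Tdg fl/fl cells, so that a positive value means a higher level in Tdg -/- cells. The added 1 FPKM makes changes of weakly expressed genes look smaller than they are. With 1 pooled value per genotype there is no spread between replicates, no difference below has a replicate check, and none carries a p-value. The read depth behind the values is unknown.

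Thymine DNA glycosylase, the product of Tdg, removes thymine or uracil mispaired with guanine, and also the oxidised forms 5-formylcytosine and 5-carboxylcytosine that TET enzymes make from 5-methylcytosine. Base excision repair then restores an unmodified cytosine, so the enzyme is a step of active DNA demethylation. Tdg is needed for mouse embryonic development, whereas ES cells without it can be grown in culture.

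Tdg itself had 9.48 FPKM in Tdg -/- cells and 22.1 FPKM in fl/fl cells, a log2 change of -1.14. The value covers the whole gene, so it does not tell transcripts that lack the deleted exons from full ones, and RefSeq lists Tdg-ps and Tdg-ps2, copies of the gene whose reads may be shared with it. The ES cell label was borne out by 10 of 10 ES markers measured in both genotypes. Dppa5a stood at 4691 FPKM in Tdg -/- cells and 4571 FPKM in fl/fl cells, Tdgf1 at 730.2 FPKM in Tdg -/- cells and 720.0 FPKM in fl/fl cells, and Pou5f1 at 612 FPKM in Tdg -/- cells and 630.5 FPKM in fl/fl cells. Of 20 fibroblast markers, a sign of feeder cells, 14 were under 1 FPKM in both genotypes, with Col1a1 at 0.304 FPKM in Tdg -/- cells and 0.418 FPKM in fl/fl cells, and Lum and S100a4 listed at 0. The summed level of the 6 measured ones was 940.7 FPKM in Tdg -/- cells and 747.5 FPKM in fl/fl cells, and Fn1, fibronectin, held 929.5 FPKM of it in Tdg -/- cells and 734.2 FPKM in fl/fl cells. Of these 6, 4 were lower by at least 0.25 (10.2% of all genes were), and the median change was -0.29. Markers of other lineages were sparse. Only 3 of 15 endoderm markers and 6 of 14 neural markers were measured, and 1 of these 9 differed by 0.5 or more, Fabp7, a fatty acid binding protein of neural progenitors, at 5.28 FPKM in Tdg -/- cells and 0.132 FPKM in fl/fl cells. In bulk RNA a smaller share of cells of one kind and less RNA per cell cannot be told apart, here and in every result that follows.

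Most genes stood close to equal levels in the genotypes. The median change over the measured genes was -0.02, with an SD over genes of 0.22, and 80.9% of genes lay within 0.25 and 96.5% within 0.5 of no change. By at least 0.5, 219 genes (1.82% of those measured) were higher in Tdg -/- cells and 197 genes (1.63%) were lower. Past 1, a 2-fold difference, there were 22 higher genes (0.183%) and 21 lower ones (0.174%). The moderate range between 0.5 and 1 therefore held 197 of the 219 higher and 176 of the 197 lower genes. At the smaller step of 0.25, 8.92% of genes were higher and 10.2% lower.

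The change leaned with the level of the gene. Genes that averaged 1 to 2 FPKM had a median change of 0.04 and those over 100 FPKM a median of -0.08, with the bands between them in order. The share of genes below 0 was 43.1% in the lowest of these bands and 70.0% in the highest, against 54.9% of all measured genes. The spread was widest at low levels, with 5.86% of genes past 0.5 in either direction at 1 to 2 FPKM, 2.35% at 20 to 50 FPKM and 3.52% over 100 FPKM. Some gene groups of high level are for this reason also given with each gene taken relative to the median of its own level band, and called level-centred.

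**Figure D1:**
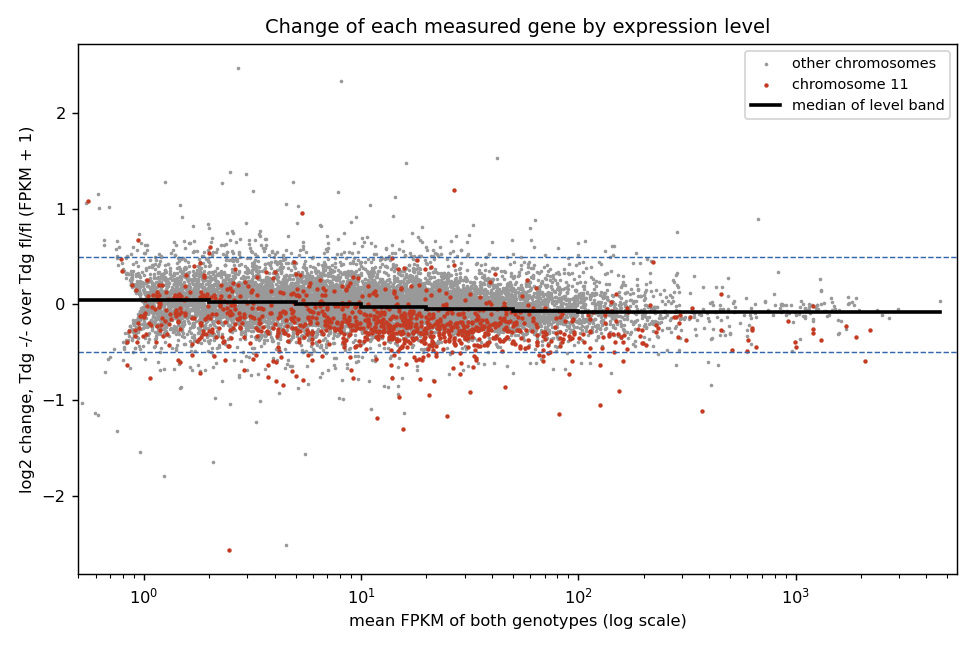
Change of each measured gene (log2 ratio of FPKM + 1, Tdg -/- over Tdg fl/fl, vertical axis) against its mean FPKM in both genotypes (horizontal axis, log scale). Each point is 1 gene, red for chromosome 11, dashed lines mark 0.5 in either direction, and the black steps are the medians of the level bands, which run between 0.04 and -0.08.

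Chromosome 11 stood apart from the others along its whole length. Its 999 measured genes had a median change of -0.21, and 83.8% were below 0. Of them 73 (7.31%) were lower by at least 0.5 and 6 (0.601%) higher. The medians of the other 19 chromosomes lay between -0.03 and 0.004. In 5 equal runs of genes in order along it, the medians were -0.20, -0.20, -0.21, -0.24 and -0.24. The first of 5 such runs on chromosome 6, with 111 genes, went the opposite way, with a median of 0.24 and 28 genes higher by 0.5 or more against 2 lower, while the other 4 runs of chromosome 6 had medians between -0.04 and -0.06. The remaining 94 runs of the genome lay between -0.09 and 0.06. Without chromosomes 6 and 11, 177 of 10424 genes (1.70%) were higher and 113 (1.08%) lower by at least 0.5. Medians of groups are also given without their genes on chromosome 11 where this moves them by 0.05 or more.

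**Figure D2:**
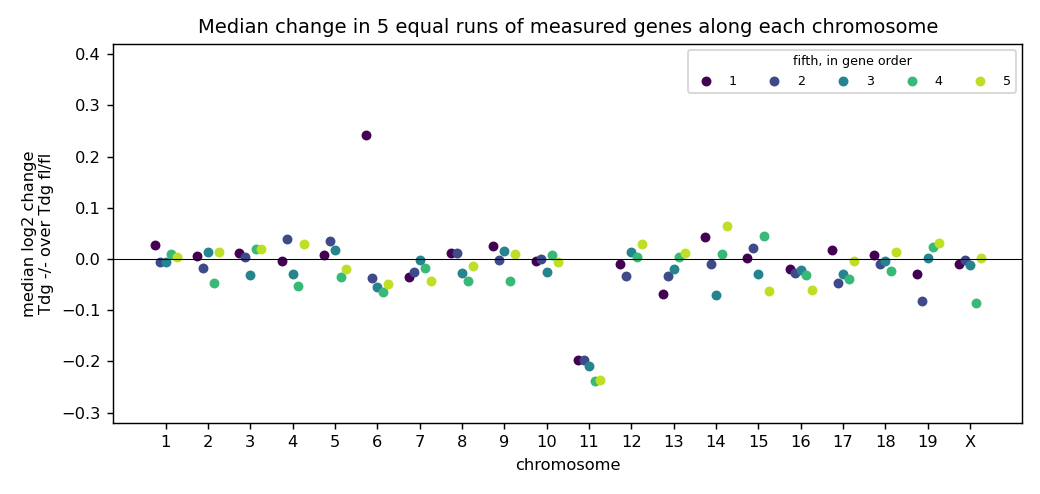
Median log2 change (Tdg -/- over Tdg fl/fl, vertical axis) of 5 equal runs of measured genes along each chromosome, in gene order (colours). All 5 runs of chromosome 11 lie at -0.20 to -0.24 and the first run of chromosome 6 at 0.24, and the other 94 lie between -0.09 and 0.06.

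Among moderate changes of genes with at least 5 FPKM in either genotype, 107 genes were higher in Tdg -/- cells and 125 lower. The 30 highest of these ran between 0.66 and 0.95. They held secreted and surface proteins, such as Cpe, the carboxypeptidase that trims prohormones, at 12.6 FPKM in Tdg -/- cells and 6.25 FPKM in fl/fl cells. Pros1, protein S of the anticoagulant system, stood at 42.2 FPKM in Tdg -/- cells and 23.3 FPKM in fl/fl cells. Msln, the surface glycoprotein mesothelin, had 11.8 FPKM in Tdg -/- cells and 6.07 FPKM in fl/fl cells, and Col5a3, a chain of collagen V, had 6.81 FPKM in Tdg -/- cells and 3.33 FPKM in fl/fl cells. All of these are made through the secretory pathway. Lpl, lipoprotein lipase, which frees fatty acids from triglycerides, was at 5.96 FPKM in Tdg -/- cells and 3.25 FPKM in fl/fl cells. Kdelr3, a receptor that returns proteins to the endoplasmic reticulum (ER), had 34.3 FPKM in Tdg -/- cells and 20.5 FPKM in fl/fl cells. Genes of signalling and of the cytoskeleton were also among them. Gng2, a gamma subunit of heterotrimeric G proteins, had 18.7 FPKM in Tdg -/- cells and 9.34 FPKM in fl/fl cells, and Dclk2, a doublecortin-like kinase of microtubules, had 23.3 FPKM in Tdg -/- cells and 14.2 FPKM in fl/fl cells. Metabolic enzymes formed another set, described with the ATF4 response below.

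Of these 107 higher genes 24 lie on chromosome 6 and 1 on chromosome 11. Those on chromosome 6 have varied functions. Mkln1, muskelin of a ubiquitin ligase complex, stood at 24.5 FPKM in Tdg -/- cells and 13.6 FPKM in fl/fl cells. Calu, the calcium-binding protein calumenin of the secretory pathway, was at 355.7 FPKM in Tdg -/- cells and 210.4 FPKM in fl/fl cells. Tmem106b, a lysosomal membrane protein, had 21.8 FPKM in Tdg -/- cells and 12.6 FPKM in fl/fl cells, and Slc25a13, a mitochondrial carrier that exchanges aspartate and glutamate, had 74.2 FPKM in Tdg -/- cells and 46.3 FPKM in fl/fl cells. A signalling gene was among them too. Smo, the signal transducer of the Hedgehog pathway, was at 11.6 FPKM in Tdg -/- cells and 7.08 FPKM in fl/fl cells, and was picked for its role after its values were seen.

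The 30 lowest moderate genes ran between -0.75 and -0.99, and 13 of them lie on chromosome 11. Among those elsewhere in the genome were inhibitors of differentiation and metabolic genes. Id3 had 5.00 FPKM in Tdg -/- cells and 10.8 FPKM in fl/fl cells, and Id1 had 3.33 FPKM in Tdg -/- cells and 6.92 FPKM in fl/fl cells. Both encode helix-loop-helix proteins that block bHLH transcription factors. Igf2, the imprinted growth factor gene, had 5.17 FPKM in Tdg -/- cells and 11.3 FPKM in fl/fl cells. Mtr, methionine synthase, which returns homocysteine to methionine with a folate methyl group, stood at 10.2 FPKM in Tdg -/- cells and 19.3 FPKM in fl/fl cells. Membrane proteins, proteases and their inhibitors were among them too. Emp1, an epithelial membrane protein, had 9.79 FPKM in Tdg -/- cells and 19.7 FPKM in fl/fl cells, and A2m, the protease inhibitor alpha-2-macroglobulin, had 10.1 FPKM in Tdg -/- cells and 17.7 FPKM in fl/fl cells. Mep1b, the beta subunit of the protease meprin, had 8.79 FPKM in Tdg -/- cells and 16.7 FPKM in fl/fl cells.

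On chromosome 11 the lowest moderate genes included Upp1, uridine phosphorylase, at 106.6 FPKM in Tdg -/- cells and 199.9 FPKM in fl/fl cells. Pcyt2, an enzyme of phosphatidylethanolamine synthesis, had 21.7 FPKM in Tdg -/- cells and 41.9 FPKM in fl/fl cells. Mafg, a small Maf partner of NRF2, had 32.4 FPKM in Tdg -/- cells and 59.8 FPKM in fl/fl cells, and Hgs, an endosomal sorting protein, had 15.6 FPKM in Tdg -/- cells and 28.0 FPKM in fl/fl cells. These genes differ widely in function. Anapc11, the RING subunit of the anaphase-promoting complex, was at 9.79 FPKM in Tdg -/- cells and 20.2 FPKM in fl/fl cells. In all, 52 of the 125 lower moderate genes are on chromosome 11 and 7 on chromosome 6.

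Small RNAs scattered far more than other genes. Of 102 symbols of small nucleolar and Cajal body RNAs, which guide chemical modification of ribosomal and spliceosomal RNA, 83 were measured. Their median was -0.11 with an SD of 0.57, and 36.1% were past 0.5, with 13 higher and 17 lower. The 81 measured microRNA genes gave an SD of 0.57 with 8 higher and 14 lower. Snord47 stood at 131.9 FPKM in Tdg -/- cells and 82.9 FPKM in fl/fl cells, whereas Snord104 stood at 13.7 FPKM in Tdg -/- cells and 27.3 FPKM in fl/fl cells. These RNAs carry no long polyA tail and mostly sit in introns of other genes.

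Of all gene groups examined, the highest median belonged to genes known to answer the transcription factor ATF4, which is made when translation initiation is slowed by lack of amino acids or by ER stress. Of 30 genes of the list, 29 were above 0 (45.1% of all measured genes were) and 12 were higher by at least 0.5 (1.82% of all genes). None was lower by as much, and the median was 0.46. Atf4 itself differed little, at 208.1 FPKM in Tdg -/- cells and 194.7 FPKM in fl/fl cells. The largest changes of the list were those of Chac1, whose values stand with its promoter, and of Atf5, the gene of a related transcription factor, at 20.1 FPKM in Tdg -/- cells and 8.68 FPKM in fl/fl cells. Enzymes of amino acid metabolism were among the next. Asns, asparagine synthetase, stood at 872.8 FPKM in Tdg -/- cells and 470.6 FPKM in fl/fl cells, and lies in the run of chromosome 6 named above. Gpt2, the mitochondrial alanine transaminase, was at 82.2 FPKM in Tdg -/- cells and 44.1 FPKM in fl/fl cells, and Cth, which makes cysteine from cystathionine, at 173.3 FPKM in Tdg -/- cells and 112.9 FPKM in fl/fl cells. Pck2, which makes phosphoenolpyruvate in mitochondria and is no member of the list, had 76.1 FPKM in Tdg -/- cells and 43.4 FPKM in fl/fl cells.

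Several genes that take in amino acids stood on the same side. Of 24 amino acid and nutrient transporters, 15 were above 0 (45.1% of all genes were) and 9 below, with a median of 0.04. By at least 0.25, 6 were higher (8.92% of all genes) and 4 lower (10.2%). Slc1a5, the glutamine carrier, had 218.8 FPKM in Tdg -/- cells and 150.2 FPKM in fl/fl cells. Slc7a5 and Slc3a2, the chains of the leucine carrier, had 170.6 and 163.1 FPKM in Tdg -/- cells, against 118.8 and 115.7 FPKM in fl/fl cells. Both are also members of the ATF4 list and were counted there. Carriers of small amino acids stood with them. Slc6a9, a glycine carrier of the ATF4 list, stood at 8.84 FPKM in Tdg -/- cells and 5.30 FPKM in fl/fl cells. Slc6a7, a proline carrier outside both lists, was at 19.16 FPKM in Tdg -/- cells and 11.76 FPKM in fl/fl cells. Some carriers were lower. Slc16a3, which exports lactate, had 15.0 FPKM in Tdg -/- cells and 34.9 FPKM in fl/fl cells. Slc7a11, the cystine carrier, was the 1 ATF4 list gene below 0, at 6.14 FPKM in Tdg -/- cells and 7.35 FPKM in fl/fl cells.

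The enzymes that charge tRNAs with amino acids differed less. Of 20 cytosolic aminoacyl tRNA synthetases, 14 were above 0 and 3 passed 0.25, with a median of 0.09. Nars was highest by change, at 238.1 FPKM in Tdg -/- cells and 189.2 FPKM in fl/fl cells, followed by Lars at 104.1 FPKM in Tdg -/- cells and 82.9 FPKM in fl/fl cells. Rars was lowest at 48.2 FPKM in Tdg -/- cells and 58.2 FPKM in fl/fl cells, on chromosome 11. Of 22 genes of one-carbon and threonine metabolism, 5 passed 0.25 upward (8.92% of all genes did) and 5 downward (10.2%). Mitochondrial enzymes stood on both sides. Some were higher, with Gldc, glycine decarboxylase, at 104.9 FPKM in Tdg -/- cells and 74.6 FPKM in fl/fl cells, and Shmt2, the mitochondrial serine hydroxymethyltransferase, at 126.4 FPKM in Tdg -/- cells and 103.5 FPKM in fl/fl cells. Gcsh, the carrier protein of the glycine cleavage system, had 50.9 FPKM in Tdg -/- cells and 57.4 FPKM in fl/fl cells, and Tdh, threonine dehydrogenase, had 246 FPKM in Tdg -/- cells and 265.6 FPKM in fl/fl cells. Cytosolic enzymes were among the lower ones. Shmt1, the cytosolic form of the serine enzyme, had 43.1 FPKM in Tdg -/- cells and 56.8 FPKM in fl/fl cells, and lies on chromosome 11. Ahcy, which clears S-adenosylhomocysteine, had 109.5 FPKM in Tdg -/- cells and 137.7 FPKM in fl/fl cells.

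Glycolysis had the lowest median of the groups examined, and genes of the response to hypoxia were lower too. Glycolysis turns glucose into pyruvate and lactate, and many of its genes are targets of the hypoxia-inducible factor HIF. Of 20 glycolytic genes, 13 were lower by at least 0.25 (10.2% of all genes were) and 6 by at least 0.5 (1.63%), with a median of -0.39, or -0.33 level-centred. Ldha, which makes lactate from pyruvate, stood at 291.5 FPKM in Tdg -/- cells and 524.8 FPKM in fl/fl cells. Hk1 and Hk2, the hexokinases, did not share this, at 34.7 and 58.3 FPKM in Tdg -/- cells, against 32.5 and 56.3 FPKM in fl/fl cells. Among 17 hypoxia genes, with a median of -0.30, or -0.23 without the 2 on chromosome 11, 15 were below 0 (54.9% of all genes were). Bnip3, a mitophagy receptor, had 20.9 FPKM in Tdg -/- cells and 30.4 FPKM in fl/fl cells. Vegfa, the endothelial growth factor gene, and Ddit4, an inhibitor of mTORC1, stood on the other side, at 37.8 and 25.4 FPKM in Tdg -/- cells, against 23.7 and 18.0 FPKM in fl/fl cells. Ddit4 is also a member of the ATF4 list.

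Promoters of 4 of these genes are shown because the groups they belong to lie at the ends of the range and the factors have known motifs. Only windows with a match are shown, and all 4 genes changed in the direction of their group. Sequences are RefSeq windows of 300 bases on GRCm38.p6, 250 before to 50 after the annotated start, on the strand of the gene. In Chac1, a glutathione-degrading enzyme at 24.2 FPKM in Tdg -/- cells and 8.06 FPKM in fl/fl cells (chr2:119350992-119351291, plus strand), and in Asns (chr6:7693160-7693459, minus strand), capitals mark TGATGNAA on either strand, the core of the element that ATF4 binds with C/EBP partners. In Ldha (chr7:46845554-46845853, plus strand) and Slc16a3 (chr11:120948817-120949116, plus strand), capitals mark ACGTG on either strand, the core of the hypoxia response element.
Chac1: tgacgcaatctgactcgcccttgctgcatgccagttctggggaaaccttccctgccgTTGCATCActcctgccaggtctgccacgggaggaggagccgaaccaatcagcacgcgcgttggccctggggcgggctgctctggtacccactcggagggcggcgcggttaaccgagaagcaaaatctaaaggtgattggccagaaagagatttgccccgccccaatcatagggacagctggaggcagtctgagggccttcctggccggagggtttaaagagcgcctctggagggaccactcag
Asns: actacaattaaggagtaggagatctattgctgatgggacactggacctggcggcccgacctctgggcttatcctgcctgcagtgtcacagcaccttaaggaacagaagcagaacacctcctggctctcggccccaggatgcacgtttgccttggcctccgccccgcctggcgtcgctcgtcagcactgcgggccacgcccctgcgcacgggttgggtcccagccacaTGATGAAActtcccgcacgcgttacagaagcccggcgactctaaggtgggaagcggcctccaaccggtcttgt
Ldha: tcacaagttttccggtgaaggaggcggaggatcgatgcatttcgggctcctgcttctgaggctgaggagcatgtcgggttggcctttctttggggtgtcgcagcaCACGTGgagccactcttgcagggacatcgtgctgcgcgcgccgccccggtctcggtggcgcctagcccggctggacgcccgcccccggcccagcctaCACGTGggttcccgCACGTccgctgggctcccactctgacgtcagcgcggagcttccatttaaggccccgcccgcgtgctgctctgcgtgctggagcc
Slc16a3: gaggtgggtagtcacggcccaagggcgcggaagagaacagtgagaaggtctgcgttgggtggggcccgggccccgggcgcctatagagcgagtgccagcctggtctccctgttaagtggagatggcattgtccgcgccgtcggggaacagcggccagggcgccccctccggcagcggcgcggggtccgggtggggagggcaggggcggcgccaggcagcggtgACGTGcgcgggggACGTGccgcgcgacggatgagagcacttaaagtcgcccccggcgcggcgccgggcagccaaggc
TGATGNAA was found in 9 of the 33 promoter windows of the ATF4 list (27.3%), against 3.97% of all 32851 windows. ACGTG was found in 13 of 20 windows of the hypoxia list (65.0%) and in 13 of 30 windows of the glycolysis list (43.3%), against 19.6% of all windows. In Ldha 4 of the 5 matches lie in 2 copies of CACGTG, the E-box bound by other factors too, which holds the motif on both strands, and the other match stands alone. The ATF4 and hypoxia lists hold genes known to answer these factors, and many glycolytic genes are HIF targets. A higher share than over all windows was thus built into the lists and does not bear on the difference between genotypes. Matches were also found in genes that went against their group. These were Slc7a11 of the ATF4 list, Vegfa and Ddit4 of the hypoxia list, and Hk1 and Hk2 of glycolysis. A match describes the letters only.

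Cholesterol synthesis was lower throughout. The pathway builds sterols from acetyl-CoA by way of mevalonate, and SREBP2 drives its genes when sterols in the ER are low. All 22 measured genes of the list were below 0 (54.9% of all genes were), 14 were lower by at least 0.25 (10.2% of all genes), and the median was -0.28, or -0.24 level-centred. None of them lies on chromosome 11. Idi1, which isomerises the isoprene unit, had 33.6 FPKM in Tdg -/- cells and 44.1 FPKM in fl/fl cells, and Fdps, which joins these units to farnesyl diphosphate, had 81.2 FPKM in Tdg -/- cells and 124.4 FPKM in fl/fl cells. Fdps, at -0.61, was the 1 member past 0.5. Later steps stood on the same side, with Lss, which closes the sterol rings, at 15.18 FPKM in Tdg -/- cells and 19.18 FPKM in fl/fl cells. Dhcr7, a reductase of the last steps, had 33.4 FPKM in Tdg -/- cells and 41.2 FPKM in fl/fl cells. A regulator of the pathway showed the same direction. Insig1, which holds SREBP in the ER and is itself a target, had 65.5 FPKM in Tdg -/- cells and 84.7 FPKM in fl/fl cells. Srebf2, the gene of SREBP2, was nearly level at 90.5 FPKM in Tdg -/- cells and 92.1 FPKM in fl/fl cells.

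Fatty acid synthesis was split. Of 14 genes, 7 were above and 7 below 0, and 4 of those below lie on chromosome 11. Fasn, fatty acid synthase, had 59.9 FPKM in Tdg -/- cells and 85.9 FPKM in fl/fl cells, Acly 91.3 FPKM in Tdg -/- cells and 120.2 FPKM in fl/fl cells, and Acaca, acetyl-CoA carboxylase, 11.3 FPKM in Tdg -/- cells and 14.0 FPKM in fl/fl cells, all on chromosome 11. Scd1, the desaturase, had 101.73 FPKM in Tdg -/- cells and 100.03 FPKM in fl/fl cells. The median was -0.02 with and 0.06 without chromosome 11. Of 13 genes listed for metal binding and iron, 10 were measured, and Tfrc, the transferrin receptor that brings in iron, stood out at 66.7 FPKM in Tdg -/- cells and 107.4 FPKM in fl/fl cells. Fth1, the ferritin heavy chain that stores iron, had 255.0 FPKM in Tdg -/- cells and 303.4 FPKM in fl/fl cells.

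**Figure D3:**
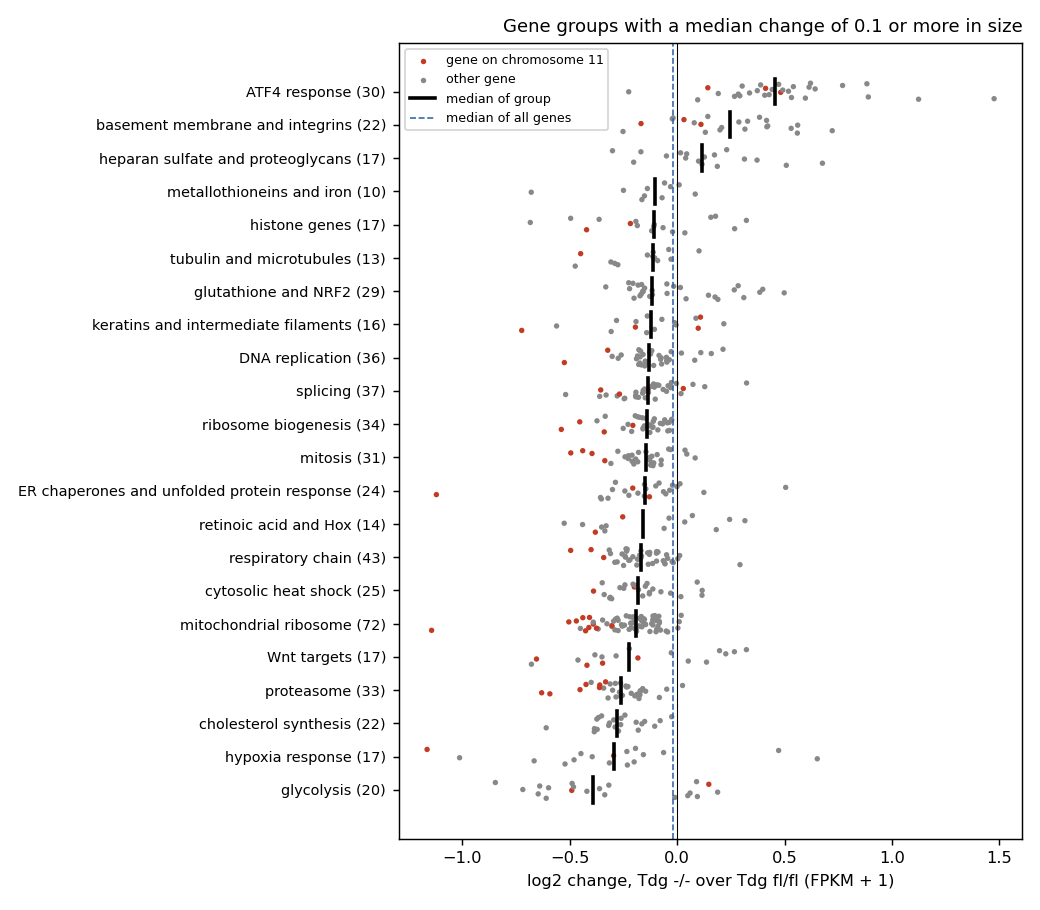
Log2 change (Tdg -/- over Tdg fl/fl, horizontal axis) of each measured gene in the groups of at least 10 measured genes whose median was 0.1 or more in size, with the number of genes in brackets. Points are genes, red on chromosome 11, thick bars the group medians and the dashed line the median of all genes, -0.02; medians run between 0.46 for the ATF4 response and -0.39 for glycolysis.

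Across 59 gene groups, 21 had a median of -0.1 or lower, 3 a median of 0.1 or higher and 35 lay between. Those of protein turnover and protein synthesis in mitochondria were among the lower ones. Abundant genes were below 0 more often than all genes (54.9%), with 63.6% at 20 to 50 FPKM and 70.0% over 100 FPKM. Of 33 proteasome genes, 32 were below 0 and 18 were lower by at least 0.25 (10.2% of all genes were). Their median was -0.26, or -0.23 without the 7 on chromosome 11 and -0.19 level-centred. Members of both parts of the complex were lower, with Psmb6 of the catalytic core at 98.5 FPKM in Tdg -/- cells and 153.0 FPKM in fl/fl cells. Psmd12, of the regulatory lid, was at 61.9 FPKM in Tdg -/- cells and 83.4 FPKM in fl/fl cells. The 2 past 0.5, Psmb6 and Psmb3, and the next 2 by size, Psmc5 and Psmd12, are all on chromosome 11. Away from that chromosome Psmd2, a scaffold subunit, had 108.3 FPKM in Tdg -/- cells and 137.5 FPKM in fl/fl cells, and Psma2 had 129.4 FPKM in Tdg -/- cells and 161.9 FPKM in fl/fl cells. Psmd8 alone was above 0, at 104.2 FPKM in Tdg -/- cells and 102.3 FPKM in fl/fl cells.

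Mitochondrial ribosomal proteins, which translate the few messages of the mitochondrial genome, were below 0 in 69 of 72 cases (54.9% of all genes were). Their median was -0.19, or -0.14 level-centred, and 25 were lower by at least 0.25 (10.2% of all genes). Mrpl12, at 50.6 FPKM in Tdg -/- cells and 113.0 FPKM in fl/fl cells, was the lowest and is on chromosome 11 with 9 others. Mrpl20, on chromosome 4, had 36.0 FPKM in Tdg -/- cells and 49.6 FPKM in fl/fl cells. Nuclear genes of the respiratory chain were below 0 in 40 of 43 cases, with a median of -0.17 and -0.09 level-centred, and Ndufa4, on chromosome 6, was the clearest exception at 375.3 FPKM in Tdg -/- cells and 306.2 FPKM in fl/fl cells. Genes of the tricarboxylic acid cycle were divided, with 11 above and 10 below 0. Idh2, the mitochondrial isocitrate dehydrogenase, had 158.5 FPKM in Tdg -/- cells and 124.2 FPKM in fl/fl cells, whereas Suclg2, a subunit of succinyl-CoA ligase, had 16.1 FPKM in Tdg -/- cells and 22.7 FPKM in fl/fl cells.

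Ribosome assembly genes were below 0 in 34 of 34 cases (54.9% of all genes were), by small amounts. Their median was -0.14, and -0.08 level-centred. Nhp2 of the box H/ACA particles had 90.7 FPKM in Tdg -/- cells and 132.2 FPKM in fl/fl cells, and Npm1, nucleophosmin, had 1678 FPKM in Tdg -/- cells and 2123 FPKM in fl/fl cells, both on chromosome 11. Nip7, on chromosome 8, had 28.3 FPKM in Tdg -/- cells and 36.9 FPKM in fl/fl cells. Cytosolic ribosomal protein genes had a median of -0.06 over 76 genes, with 62 below 0, and of 0.02 when level-centred. They are themselves part of the 653 genes over 100 FPKM on which they were centred. The centring therefore cannot tell whether they had a direction of their own. The 3 with the lowest change, Rpl38, Rpl19 and Rpl26, lie on chromosome 11, and Rpl38 had 861.9 FPKM in Tdg -/- cells and 1129 FPKM in fl/fl cells.

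Chaperones were mostly below 0. Of 25 cytosolic heat shock genes 21 were below 0 (54.9% of all genes were), with a median of -0.18, or -0.11 level-centred. Hspa8, the constitutive HSP70, had 1392 FPKM in Tdg -/- cells and 1727 FPKM in fl/fl cells, and 8 of 8 listed subunits of the CCT chaperonin, which folds actin and tubulin, were below 0, with Cct3 at 220.5 FPKM in Tdg -/- cells and 265.4 FPKM in fl/fl cells. Hsp90aa1 was level at 1765 FPKM in Tdg -/- cells and 1743 FPKM in fl/fl cells. In the ER, 21 of 24 chaperone and unfolded protein genes were below 0, with a median of -0.15, or -0.085 level-centred. Hspa5, the main ER chaperone BiP, had 257.4 FPKM in Tdg -/- cells and 328.8 FPKM in fl/fl cells, and Calr, calreticulin, had 360.7 FPKM in Tdg -/- cells and 462.1 FPKM in fl/fl cells. P4hb, a disulfide isomerase gene on chromosome 11, had 234.0 FPKM in Tdg -/- cells and 509.8 FPKM in fl/fl cells. Herpud1, which serves ER-associated degradation, was the 1 gene of the group past 0.5 upward, at 20.8 FPKM in Tdg -/- cells and 14.3 FPKM in fl/fl cells. Oxidative stress genes were mixed. Among targets of NRF2 and glutathione enzymes 11 of 29 were above 0 (45.1% of all genes were), with a median of -0.11. By at least 0.25, however, 6 were higher (8.92% of all genes) and 1 lower (10.2%). The highest was Gstm1, a glutathione transferase, at 55.0 FPKM in Tdg -/- cells and 38.6 FPKM in fl/fl cells. Sod1, superoxide dismutase, was lowest at 527.3 FPKM in Tdg -/- cells and 664.0 FPKM in fl/fl cells.

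Some lysosomal enzymes stood on the other side. Of 33 lysosome and autophagy genes 20 were above 0 (45.1% of all genes were), 6 were higher (8.92% of all genes) and 4 lower (10.2%) by at least 0.25, with a median of 0.06, or 0.10 without the 6 on chromosome 11. The hydrolases Asah1 and Ctsl had 222.3 and 205.6 FPKM in Tdg -/- cells, against 164.1 and 152.0 FPKM in fl/fl cells. Asah1 cleaves ceramide, and Ctsl, cathepsin L, proteins. Genes of the autophagosome stood below, with Gabarapl2 at 153.2 FPKM in Tdg -/- cells and 204.1 FPKM in fl/fl cells and Sqstm1, the cargo receptor p62, at 76.9 FPKM in Tdg -/- cells and 95.5 FPKM in fl/fl cells.

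Cell division genes were slightly lower as a group. Among 36 genes of DNA replication 31 were below 0 (54.9% of all genes were), with a median of -0.13 and -0.07 level-centred. Cdc6, which loads the MCM helicase, had 11.5 FPKM in Tdg -/- cells and 17.0 FPKM in fl/fl cells, on chromosome 11, and Cdc45, which activates it, had 24.4 FPKM in Tdg -/- cells and 30.3 FPKM in fl/fl cells, on chromosome 16. Pola1 and Pole, polymerase subunits, were above 0, at 28.2 and 34.1 FPKM in Tdg -/- cells, against 25.1 and 31.5 FPKM in fl/fl cells. Of 31 mitosis genes 28 were below 0, with a median of -0.14 and -0.11 level-centred. The 4 lowest, Birc5, Pttg1, Top2a and Aurkb, are all on chromosome 11, and Birc5, survivin of the chromosomal passenger complex, had 61.2 FPKM in Tdg -/- cells and 86.6 FPKM in fl/fl cells. Cdc20, which activates the anaphase-promoting complex, had 58.6 FPKM in Tdg -/- cells and 72.8 FPKM in fl/fl cells. Splicing factors were below 0 in 32 of 37 cases with a median of -0.13, and -0.06 level-centred. Core Sm proteins lay lowest, with Snrpg at 191.0 FPKM in Tdg -/- cells and 274.1 FPKM in fl/fl cells and Snrpd2 at 185.1 FPKM in Tdg -/- cells and 237.9 FPKM in fl/fl cells. Mbnl2, which regulates splicing in development, was highest at 21.0 FPKM in Tdg -/- cells and 16.6 FPKM in fl/fl cells. Nucleotide synthesis had 1 gene past 0.5, Impdh1 of guanine nucleotide synthesis, at 26.1 FPKM in Tdg -/- cells and 17.7 FPKM in fl/fl cells, in the run of chromosome 6.

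Components of the basement membrane stood mostly on the higher side. This sheet of laminin, collagen IV, nidogen and perlecan underlies epithelia and is laid down early in the embryo. Of 22 measured genes of the basement membrane and its integrin receptors, 18 were above 0 (45.1% of all genes were), 11 were higher by at least 0.25 (8.92%) and 4 by at least 0.5 (1.82%), with a median of 0.25, and 0.32 without the 3 on chromosome 11. Laminin chains differed among themselves. Lamb2 had 39.2 FPKM in Tdg -/- cells and 23.4 FPKM in fl/fl cells, and Lama1 had 18.7 FPKM in Tdg -/- cells and 12.4 FPKM in fl/fl cells, while Lamb1 stood on the other side at 27.1 FPKM in Tdg -/- cells and 32.4 FPKM in fl/fl cells. Agrn, agrin, had 157.7 FPKM in Tdg -/- cells and 106.6 FPKM in fl/fl cells, and Hspg2, perlecan, had 103.8 FPKM in Tdg -/- cells and 77.2 FPKM in fl/fl cells. Collagen and receptor genes stood with them. Col4a2, a collagen IV chain, was at 4.92 FPKM in Tdg -/- cells and 3.10 FPKM in fl/fl cells. Itgb1, the integrin beta chain that most laminin receptors use, had 62.4 FPKM in Tdg -/- cells and 46.5 FPKM in fl/fl cells. Fn1 of the wider matrix, given above, stood on the same side.

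Proteoglycans that carry heparan sulfate, a sugar chain that binds growth factors, stood on the same side. Of 17 genes 13 were above 0 (45.1% of all genes were), with a median of 0.12 and none on chromosome 11. Core proteins led, with Gpc6 at 3.98 FPKM in Tdg -/- cells and 2.12 FPKM in fl/fl cells, Gpc3 at 26.8 FPKM in Tdg -/- cells and 18.5 FPKM in fl/fl cells and Sdc4 at 146.4 FPKM in Tdg -/- cells and 117.6 FPKM in fl/fl cells. Sulf2, which removes sulfate from the chains outside the cell, had 52.6 FPKM in Tdg -/- cells and 44.7 FPKM in fl/fl cells, and Sulf1 had 3.17 FPKM in Tdg -/- cells and 4.14 FPKM in fl/fl cells. Enzymes that build the chain were close to level, such as Ext1 at 10.0 FPKM in Tdg -/- cells and 9.71 FPKM in fl/fl cells.

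**Figure D4:**
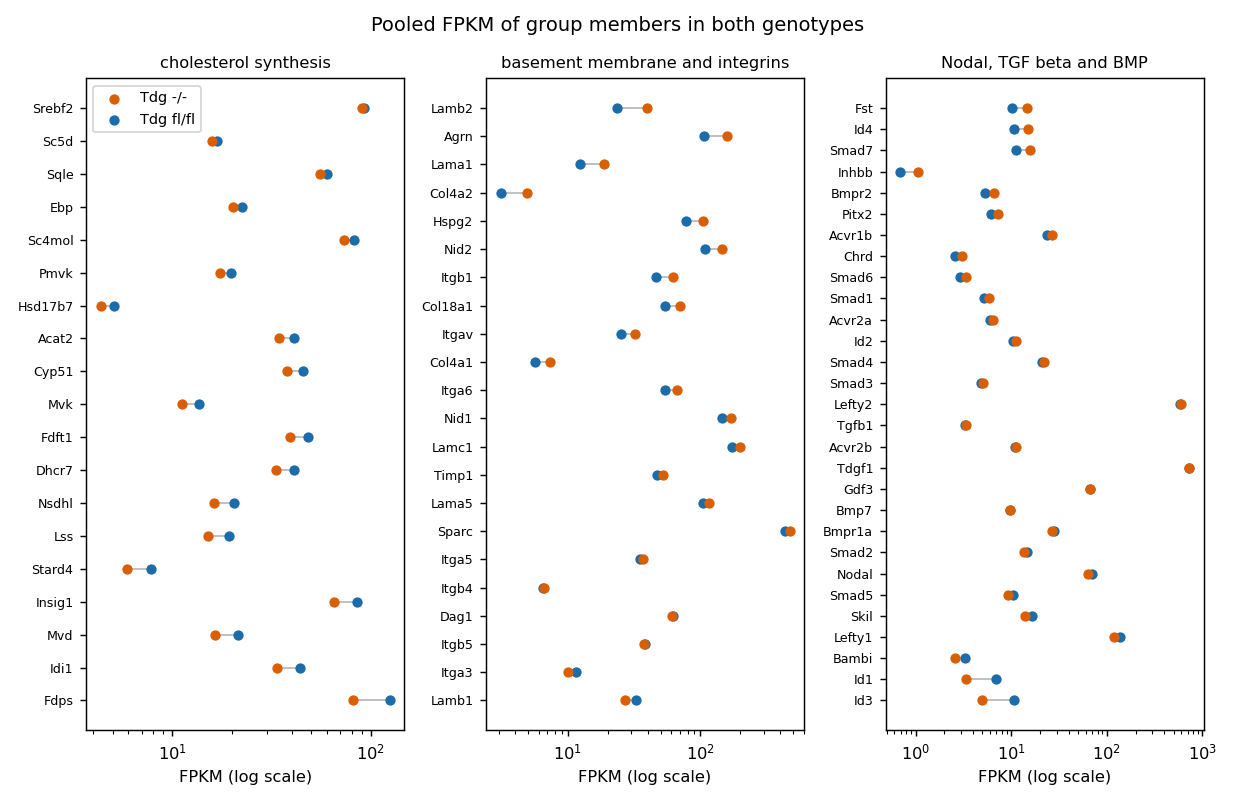
FPKM of measured members (log scale, horizontal axis) in Tdg -/- cells (orange) and Tdg fl/fl cells (blue) for 3 gene groups, ordered by change. The cholesterol genes drawn are all lower in Tdg -/- cells, 18 of 22 basement membrane genes are higher, and Id3 and Id1 lie lowest of the Nodal and BMP genes drawn.

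In the TGF beta family, ligands and receptors were near level while some targets differed. Nodal keeps the epiblast able to differentiate, and BMP acts with LIF in ES cells through Id genes. Of 30 measured genes 19 were above 0 (45.1% of all genes were), with a median of 0.05. By at least 0.5, 3 were lower (1.63% of all genes) and none higher (1.82%). By at least 0.25, 5 were higher (8.92% of all genes) and 3 lower (10.2%). Among the higher were the receptor gene Bmpr2, at 6.64 FPKM in Tdg -/- cells and 5.32 FPKM in fl/fl cells, and the ligand gene Inhbb. Inhbb had 1.05 FPKM in Tdg -/- cells and 0.692 FPKM in fl/fl cells. Nodal had 63.4 FPKM in Tdg -/- cells and 69.2 FPKM in fl/fl cells, and the receptors Acvr1b and Bmpr1a had 26.5 and 26.8 FPKM in Tdg -/- cells, against 23.4 and 28.0 FPKM in fl/fl cells. The Nodal targets Lefty1 and Lefty2, secreted inhibitors of the pathway, had 118.2 and 602.0 FPKM in Tdg -/- cells, against 137.6 and 576.8 FPKM in fl/fl cells. The 4 Id genes were not alike. Id1 and Id3, given above, were lower, Id2 was level at 11.1 FPKM in Tdg -/- cells and 10.5 FPKM in fl/fl cells, and Id4 was at 15.1 FPKM in Tdg -/- cells and 10.6 FPKM in fl/fl cells. Inhibitors of the pathways stood on both sides. Some were higher, with Smad7 at 15.9 FPKM in Tdg -/- cells and 11.2 FPKM in fl/fl cells and Fst, follistatin, which binds activin, at 14.7 FPKM in Tdg -/- cells and 10.1 FPKM in fl/fl cells. Lefty1 and Bambi, a decoy receptor, were lower, with Bambi at 2.61 FPKM in Tdg -/- cells and 3.29 FPKM in fl/fl cells.

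Most other signalling groups had medians near 0. For comparison, 1.82% of all genes were higher and 1.63% lower by at least 0.5, and 8.92% and 10.2% by at least 0.25. Of 16 Notch genes 8 were above and 8 below 0, with the receptor gene Notch3 at 27.09 FPKM in Tdg -/- cells and 21.99 FPKM in fl/fl cells and the target Hes1 at 31.2 FPKM in Tdg -/- cells and 25.9 FPKM in fl/fl cells. In the Hippo pathway, which restrains the coactivator YAP, the YAP targets Ctgf and Cyr61 had 26.1 and 12.8 FPKM in Tdg -/- cells, against 27.1 and 11.9 FPKM in fl/fl cells. Amotl2, an angiomotin that holds YAP at junctions, had 42.6 FPKM in Tdg -/- cells and 31.6 FPKM in fl/fl cells. Of the 18 genes of the list 10 were above 0 and 8 below, with a median of 0.02, and 2 were higher and 2 lower by at least 0.25. Among 15 genes of FGF signalling and its ERK feedback none passed 0.5. Myc had 1.18 FPKM in Tdg -/- cells and 1.91 FPKM in fl/fl cells, Ccnd1, cyclin D1, had 12.8 FPKM in Tdg -/- cells and 16.6 FPKM in fl/fl cells, and Spry1, a feedback inhibitor, had 4.18 FPKM in Tdg -/- cells and 3.33 FPKM in fl/fl cells. Wnt target genes were below 0 in 11 of 17 cases (54.9% of all genes were) with a median of -0.22, and -0.03 without the 4 on chromosome 11. Axin2 had 5.98 FPKM in Tdg -/- cells and 8.34 FPKM in fl/fl cells. Of the 8 lower by at least 0.25, 5 lie on other chromosomes, among them Lef1, whose values stand with the epiblast markers. Among 16 genes of LIF and STAT3, the cytokine pathway that keeps ES cells undifferentiated, 10 were above 0, with Socs2 at 21.3 FPKM in Tdg -/- cells and 16.2 FPKM in fl/fl cells. Immediate early genes had a median of 0.01 over 15 genes, and Atf3, also a target of ATF4, was the 1 past 0.5, at 4.82 FPKM in Tdg -/- cells and 2.99 FPKM in fl/fl cells. Of 27 insulin and growth factor genes 15 were above 0 and 12 below, with a median of 0.04, and 1 was higher and 3 lower by at least 0.5. Tsc2, which restrains mTORC1, had 16.5 FPKM in Tdg -/- cells and 24.2 FPKM in fl/fl cells, and Igfbp4 on chromosome 11 had 8.64 FPKM in Tdg -/- cells and 22.7 FPKM in fl/fl cells. Retinoic acid and Hox genes had a median of -0.16 over 14 measured genes, or -0.05 without the 2 on chromosome 11, and 13 others were under 1 FPKM. Stra8, a germ cell gene that retinoic acid induces, had 2.53 FPKM in Tdg -/- cells and 4.08 FPKM in fl/fl cells.

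Cytoskeletal genes stood on both sides of 0. Of 38 actin-related genes 15 were above and 23 below 0, with a median of -0.06. By at least 0.25, 8 were lower (10.2% of all genes were) and 3 higher (8.92%). Myh9, non-muscle myosin heavy chain, on chromosome 15, had 58.5 FPKM in Tdg -/- cells and 93.9 FPKM in fl/fl cells. Actg1 and Arhgdia, an actin and an inhibitor of small GTPases, both on chromosome 11, had 559.6 and 81.3 FPKM in Tdg -/- cells, against 761.7 and 169.4 FPKM in fl/fl cells. Cfl1, cofilin, which severs filaments, had 357.4 FPKM in Tdg -/- cells and 460.1 FPKM in fl/fl cells, and Actb had 629.4 FPKM in Tdg -/- cells and 688.5 FPKM in fl/fl cells. Other abundant genes of the list lay above 0. Cnn3, a calponin that binds actin, had 306.8 FPKM in Tdg -/- cells and 271.1 FPKM in fl/fl cells. Microtubule genes were more uniform. Of 13 tubulin and microtubule genes 12 were below 0 (54.9% of all genes were), with Tuba1a at 213.9 FPKM in Tdg -/- cells and 297.6 FPKM in fl/fl cells. Tuba1a, Tuba1b and Tuba1c are near-identical, so reads may be shared among them. Vim, vimentin of mesenchymal cells, had 10.7 FPKM in Tdg -/- cells and 16.3 FPKM in fl/fl cells, and Krt18, a keratin of simple epithelia, had 6.92 FPKM in Tdg -/- cells and 8.80 FPKM in fl/fl cells. Of 21 genes of cell adhesion and junctions 12 were above 0 and 9 below, with 4 higher by at least 0.25 and none lower by as much. Cdh1, E-cadherin, had 227.1 FPKM in Tdg -/- cells and 213.3 FPKM in fl/fl cells, Ocln, occludin, had 8.24 FPKM in Tdg -/- cells and 6.65 FPKM in fl/fl cells, and Cldn7, a claudin, had 21.2 FPKM in Tdg -/- cells and 15.1 FPKM in fl/fl cells.

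Chromatin regulators lay close to 0, as did most measured genes. By at least 0.5, 1.82% of all genes were higher and 1.63% lower, so groups of this size hold few such genes in any case. Among 30 Polycomb genes none passed 0.5 and 1 passed 0.25, Cbx1 on chromosome 11, at 80.5 FPKM in Tdg -/- cells and 101.1 FPKM in fl/fl cells. Ezh2, the H3K27 methyltransferase, had 53.9 FPKM in Tdg -/- cells and 58.7 FPKM in fl/fl cells. Regulators of H3K4 and H3K9 methylation had a median of -0.03 over 29 genes, with Atrx, an H3.3 loader at repeats, highest at 94.6 FPKM in Tdg -/- cells and 80.3 FPKM in fl/fl cells. Of 33 nucleosome remodelling genes 6 were lower by at least 0.25 (10.2% of all genes were). Chd3 on chromosome 11 had 2.85 FPKM in Tdg -/- cells and 5.89 FPKM in fl/fl cells, and Chd4, the more abundant NuRD helicase, had 92.6 FPKM in Tdg -/- cells and 110.4 FPKM in fl/fl cells. Coactivator and Mediator genes held none past 0.5, and Ep300, the p300 acetyltransferase, had 27.4 FPKM in Tdg -/- cells and 25.9 FPKM in fl/fl cells. Histone genes were below 0 in 12 of 17 cases (54.9% of all genes were), with H2afz at 913.2 FPKM in Tdg -/- cells and 1038 FPKM in fl/fl cells. Small RNA processing genes showed small differences both ways. Eif2c2, which encodes the slicing Argonaute, had 39.2 FPKM in Tdg -/- cells and 33.4 FPKM in fl/fl cells, and Lin28a, which blocks let-7 maturation, had 47.8 FPKM in Tdg -/- cells and 55.0 FPKM in fl/fl cells.

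Genes close to the function of Tdg were mostly near level, as were most measured genes. Of all genes, 1.82% were higher and 1.63% lower by at least 0.5, so few are to be found in groups of this size. In base excision repair 1 of 21 genes passed 0.5, Tdg itself. Apex1, the endonuclease that cuts the site a glycosylase leaves, had 87.1 FPKM in Tdg -/- cells and 101.2 FPKM in fl/fl cells, and Neil2, a glycosylase of oxidised bases, had 13.9 FPKM in Tdg -/- cells and 11.7 FPKM in fl/fl cells. Tet1 stood at 76.9 FPKM in Tdg -/- cells and 66.6 FPKM in fl/fl cells, Tet2 at 43.8 FPKM in Tdg -/- cells and 46.9 FPKM in fl/fl cells, and Dnmt1, the maintenance methyltransferase, at 67.8 FPKM in Tdg -/- cells and 66.8 FPKM in fl/fl cells. Of 20 genes of DNA methylation and its removal 1 passed 0.5, Dppa3, which was lower by more than 2-fold and is described with the naive pluripotency genes. The 38 genes of mismatch and double-strand break repair held none past 0.5, with Brca2 highest at 23.7 FPKM in Tdg -/- cells and 18.0 FPKM in fl/fl cells and Rad50 of chromosome 11 lowest at 8.75 FPKM in Tdg -/- cells and 12.4 FPKM in fl/fl cells. Targets of p53 had a median of -0.01 over 27 genes. Gdf15, a stress cytokine also induced through ATF4, was the 1 past 0.5, at 8.95 FPKM in Tdg -/- cells and 5.05 FPKM in fl/fl cells, and Cdkn1a, the p21 inhibitor of the cell cycle, had 82.8 FPKM in Tdg -/- cells and 88.5 FPKM in fl/fl cells.

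Naive pluripotency genes were mostly above 0, with 10 of 13 (45.1% of all genes were) and a median of 0.09. Tcl1, a coactivator of AKT, had 59.1 FPKM in Tdg -/- cells and 40.8 FPKM in fl/fl cells, and Klf5 had 63.6 FPKM in Tdg -/- cells and 44.8 FPKM in fl/fl cells, while Dppa3, which protects methylation in the early embryo, had 6.77 FPKM in Tdg -/- cells and 15.6 FPKM in fl/fl cells. Of 12 markers of the primed epiblast 7 were measured, with 1 above and 6 below 0 (54.9% of all genes were) and a median of -0.18. By at least 0.25, 2 were lower and 1 higher. The lower ones, Otx2 and Lef1, had 1.51 and 0.824 FPKM in Tdg -/- cells, against 2.55 and 1.92 FPKM in fl/fl cells. The higher one was Fst, at 14.7 FPKM in Tdg -/- cells and 10.1 FPKM in fl/fl cells. Of 45 germline genes that methylation is known to silence, 24 were measured. None was higher by 0.5 (1.82% of all genes were) and 3 were lower (1.63%). Among these was Usp26, at 0.632 FPKM in Tdg -/- cells and 8.36 FPKM in fl/fl cells. The 13 measured genes of the rare 2-cell-like state had a median of 0.04 and none past 0.5.

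Imprinted genes held some of the wider differences in both directions. Of 40 measured, 6 were higher (1.82% of all genes were) and 3 lower (1.63%) by at least 0.5. Grb10, a growth inhibitor, had 37.7 FPKM in Tdg -/- cells and 15.9 FPKM in fl/fl cells, although it lies on chromosome 11. At the shared Igf2 and H19 locus the members stood on opposite sides, with H19 at 2.18 FPKM in Tdg -/- cells and 0.315 FPKM in fl/fl cells. Mcts2 and H13 did likewise. Mcts2 had 15.4 FPKM in Tdg -/- cells and 27.4 FPKM in fl/fl cells, and H13, the signal peptide peptidase gene in whose intron Mcts2 lies, had 11.7 FPKM in Tdg -/- cells and 7.73 FPKM in fl/fl cells. The library kit keeps no strand, and reads of overlapping genes such as these may be assigned to either gene. Peg10 had 11.3 FPKM in Tdg -/- cells and 18.3 FPKM in fl/fl cells, against the run of its neighbours in the first part of chromosome 6. Copg2, which overlaps Mest at another imprinted locus of that chromosome, had 49.1 FPKM in Tdg -/- cells and 30.9 FPKM in fl/fl cells.

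Immune genes were mostly level at low values. Of 19 genes of antigen presentation, H2-Eb1, a class II chain, had 11.2 FPKM in Tdg -/- cells and 4.40 FPKM in fl/fl cells, while Cd74, the invariant chain that escorts class II molecules, had 5.98 FPKM in Tdg -/- cells and 6.64 FPKM in fl/fl cells. Psmb10, an immunoproteasome subunit, had 2.46 FPKM in Tdg -/- cells and 3.92 FPKM in fl/fl cells. Of this list 6 genes were above and 13 below 0 (54.9% of all genes were), with 2 higher and 2 lower by at least 0.25. Of 29 interferon response genes 17 were measured, and Oas1a, which senses double-stranded RNA, was the 1 past 0.5, at 3.39 FPKM in Tdg -/- cells and 5.78 FPKM in fl/fl cells. Eif2ak2, the kinase PKR of the same response, had 415.7 FPKM in Tdg -/- cells and 408.2 FPKM in fl/fl cells.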

How the data were processed

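The authors deposited 2 tables of FPKM, 1 for each genotype, each with 20437 rows for 20286 symbols, and each FPKM value is pooled over 2 polyA libraries read as single 51 bp reads, per the labels. Per the submitters' processing notes, tools and build were TopHat 1.4.1, Cufflinks 1.3.0 and mm9. The way both libraries were merged into 1 value is not stated there. Rows of a symbol were summed (104 symbols), 1 FPKM was added, and genes with at least 1 FPKM in either genotype were kept, with pandas 2.3.3 and numpy 2.4.6. The calculation was checked on simulated data. No count test could be run, and no interval for a single gene or limit of detection was computed, since depth is unknown. For the median of each list a 95% interval was computed from the order of its genes. It holds no spread between replicates and is not given here.

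Chromosomes came from RefSeq on GRCm38.p6 by symbol, for 11976 of 12053 genes, with no coordinates taken over. A check of promoter CpG content was void, since 9477 of 12053 genes (78.6%, under the 80% required) matched a promoter. The region lists were not used. The members and the gene lists were chosen with earlier results of these data known. The naming rule covers Tdg and the 30 highest and 30 lowest changes between 0.5 and 1 at 5 FPKM or more. Of each list it covers the 4 largest changes, any past 0.5 and the 2 most abundant genes. Not every gene that the rule covers is named above. Other members named were chosen for their role after values were seen. Values of some genes are not reported here.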

Additional observations from a re-analysis of the deposited data

How the results depend on the processing

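No paired analysis was possible because the tables hold 1 pooled value per genotype, and for the same reason no replicate could be left out. The alternatives for promoter CpG classes were not run. Adding 0.1 in place of 1 FPKM gave 410 higher and 330 lower genes past 0.5 (219 and 197 as reported) and 58 higher and 52 lower past 2-fold (22 and 21), a median of -0.43 for fibroblast markers (-0.29) and of -0.24 for chromosome 11 (-0.21). A minimum of 5 FPKM gave 118 higher and 136 lower genes past 0.5, so that lower genes were in the majority and higher ones made up 46.5% (52.6% at a minimum of 1 FPKM). It also gave 11 higher and 11 lower past 2-fold, a median of -0.24 for chromosome 11, and 0.34 for fibroblast markers, of which then only Fn1 was left. With no minimum the retinoic acid and Hox median was 0.0031 (-0.16 as reported). Without chromosome 11, 124 genes were lower past 0.5 and higher genes made up 63.2% of those past 0.5. Quantile normalization of the tables, and centring on the level band (chosen after seeing the data), moved medians of abundant groups toward or past 0. Under quantile normalization and under centring the medians were 0.074 and 0.090 for the tricarboxylic acid cycle, -0.11 and -0.094 for the respiratory chain, -0.14 and -0.14 for the mitochondrial ribosome, 0.035 and 0.024 for the cytosolic ribosome, -0.081 and -0.078 for ribosome assembly, and -0.10 and -0.11 for heat shock genes. They were -0.19 and -0.19 for the proteasome, -0.067 and -0.066 for DNA replication, -0.11 and -0.11 for mitosis, -0.063 and -0.064 for splicing, 0.0054 and 0.0079 for mismatch and break repair, 0.0012 and 0.0032 for nucleosome remodelling, and -0.19 and -0.19 for chromosome 11. Of the 289 genes that the naming rule covers, none past 0.5 changed sign under quantile normalization. The other alternatives could not reverse such a gene. They change the added FPKM, add or remove genes, or shift a gene by a level band median far smaller than 0.5. The causes were not tested.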
